A study of Mus musculus with 31 samples.

Results

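The CC chemokine ligand genes described here are Ccl2, Ccl3, Ccl4, Ccl5, Ccl6, Ccl7, Ccl9, Ccl12 and Ccl24, taken by symbol from the Ensembl identifiers of the expression tables. They are 9 of the 47069 genes in those tables, and all 9 were matched. Levels were read in 31 single cells, all from 1 group: cells of the right lung lobes of Csf1r-GFP mice, adults of 10 weeks, taken 7 days after a sham operation in which the chest was opened. The cells had been sorted on CD45, the Csf1r-GFP reporter and F4/80, with Ly6G named without a sign, and each was captured on a Fluidigm C1 chip and sequenced as polyadenylated RNA. The labels name no animal and there is no second group. The group therefore counts as 1 sample, cells are not replicates, and no p-value is given. The reporter marks cells that use the Csf1r promoter, which monocytes and macrophages share.

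CC chemokines are small secreted proteins that draw leukocytes along a gradient by binding G protein-coupled receptors. CCL2, CCL7 and CCL12 act through CCR2, the receptor that brings inflammatory monocytes out of the blood and into tissue. CCL3 and CCL5 act through CCR1, a receptor of monocytes and other leukocytes, and macrophages make CCL3 and CCL4 quickly after inflammatory stimulation. CCL6 and CCL9 are rodent chemokines that bind CCR1 and are made by myeloid cells without such a stimulus. CCL24, or eotaxin-2, binds CCR3 on eosinophils.

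A gene was counted as held by a cell at 1 FPKM or more. FPKM is a read count scaled to transcript length and to the depth of the library, so the levels of different members can be set side by side. Of the 31 cells, 20 had the myeloid lysozyme gene Lyz2 at 1000 FPKM or more and are called Lyz2-high; C7 lay just inside this limit at 1229 FPKM and D10 just outside at 553 FPKM. Nuclear protein-coding genes took 87.4 to 95.6% of expected counts in the Lyz2-high cells. In the other 11 cells they took 32.7 to 61.4% in 10 libraries, called poor in coding reads (under 80%), and 87.9% in the last, F11. Total expected counts were 521492 to 4059833 in the Lyz2-high cells (median 1591648) and 120835 to 1592301 in the other 11 (median 413337). Of the sort genes, Csf1r was found in 20 of 20 Lyz2-high cells, Ptprc (CD45) in 19, Adgre1 (F4/80) in 15 and Ly6g in 7. Csf1r levels in these cells ran from near the limit, 1.71 FPKM in A12 and 1.85 FPKM in A10, to 855 FPKM in F1. Each share of cells is followed by its Clopper-Pearson 95% interval (exact), which allows for the number of cells alone.

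Every Lyz2-high cell held at least 2 of the 9 ligand genes. The number held was 2 to 7 with a median of 4: 3 cells held 2, 4 held 3, 6 held 4, 2 held 5, 3 held 6 and 2 held 7. Across the same 20 cells the number held had a Spearman correlation of -0.03 with total counts. Of all 47069 genes, 10818 were held by at least 1 of these cells, and the median of those genes by 3 of the 20. Among the 10 libraries poor in coding reads, 0 to 4 members were held (median 0.5), and 5 of the 10 held none. In F11, which had no Lyz2 counts, 6 members were held.

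The summed FPKM of the 9 genes differed widely among Lyz2-high cells. It was lowest in H5 at 891 FPKM, had a median of 11670 FPKM and was highest in H8 at 102467 FPKM. As a share of all FPKM in the cell, the sum was 0.0903% in H5, had a median of 1.04%, and reached 4.89% in G8, 7.13% in C7 and 10.1% in H8. Cells of 1 sort thus put very different parts of their transcriptome into these ligands. Ccl4 was the most abundant member in 10 of the 20 cells, Ccl6 in 7, Ccl2 in 2 and Ccl3 in 1. One member made up over 50% of the sum in 18 of the 20 cells, and the leading member's share was 26.9 to 97.7% (median 69.0%). With each of the 20 cells weighted equally, Ccl3, Ccl4 and Ccl5 made up a mean of 56.0% of the sum (0 to 99.7%), Ccl6 and Ccl9 31.7% (0.333 to 100%), and Ccl2, Ccl7 and Ccl12 11.3% (0 to 81.2%). Ccl3, Ccl4 and Ccl5 were all absent in 6 of the cells.

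**Figure D1:**
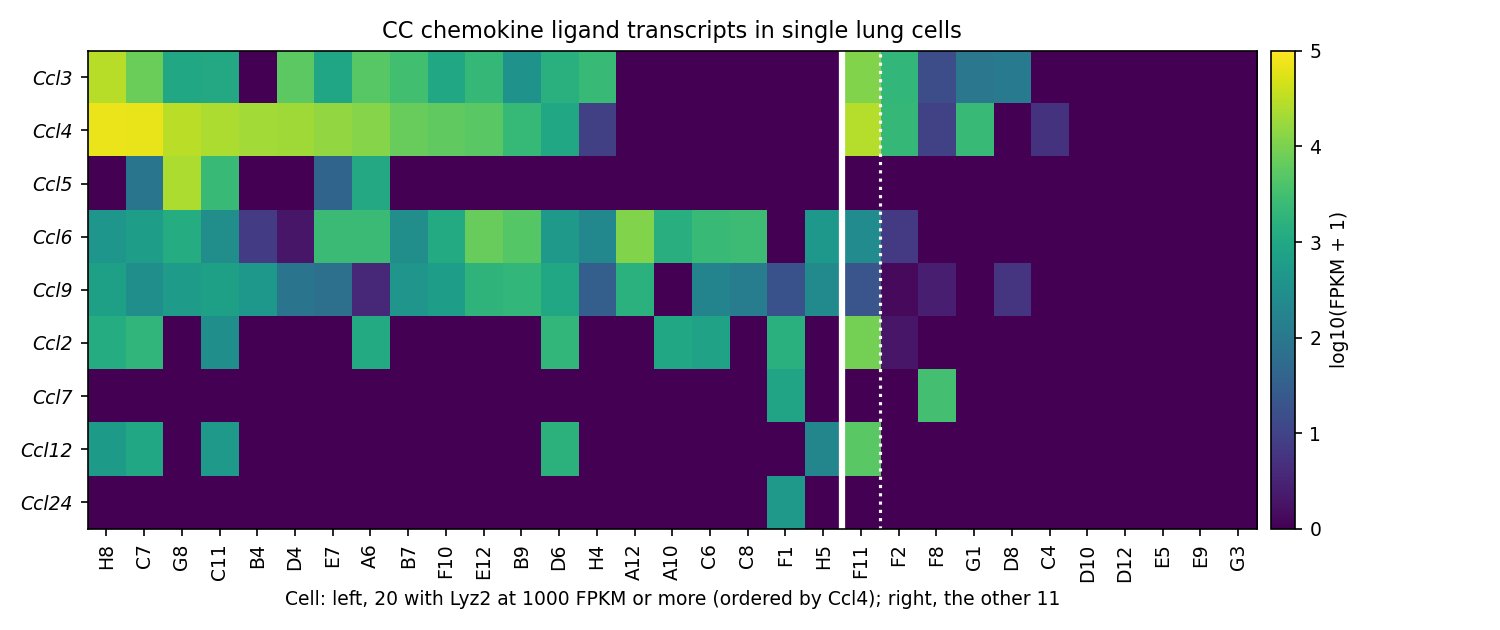
Level of each ligand gene, log10(FPKM + 1), in the 20 Lyz2-high cells (left of the solid line, ordered by Ccl4) and the other 11 (right; F11, then the 10 libraries poor in coding reads). Ccl6 and Ccl9 run across nearly the whole left block, Ccl3 and Ccl4 stop after 14 cells, and Ccl5, Ccl2, Ccl12, Ccl7 and Ccl24 are scattered.

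**Figure D2:**
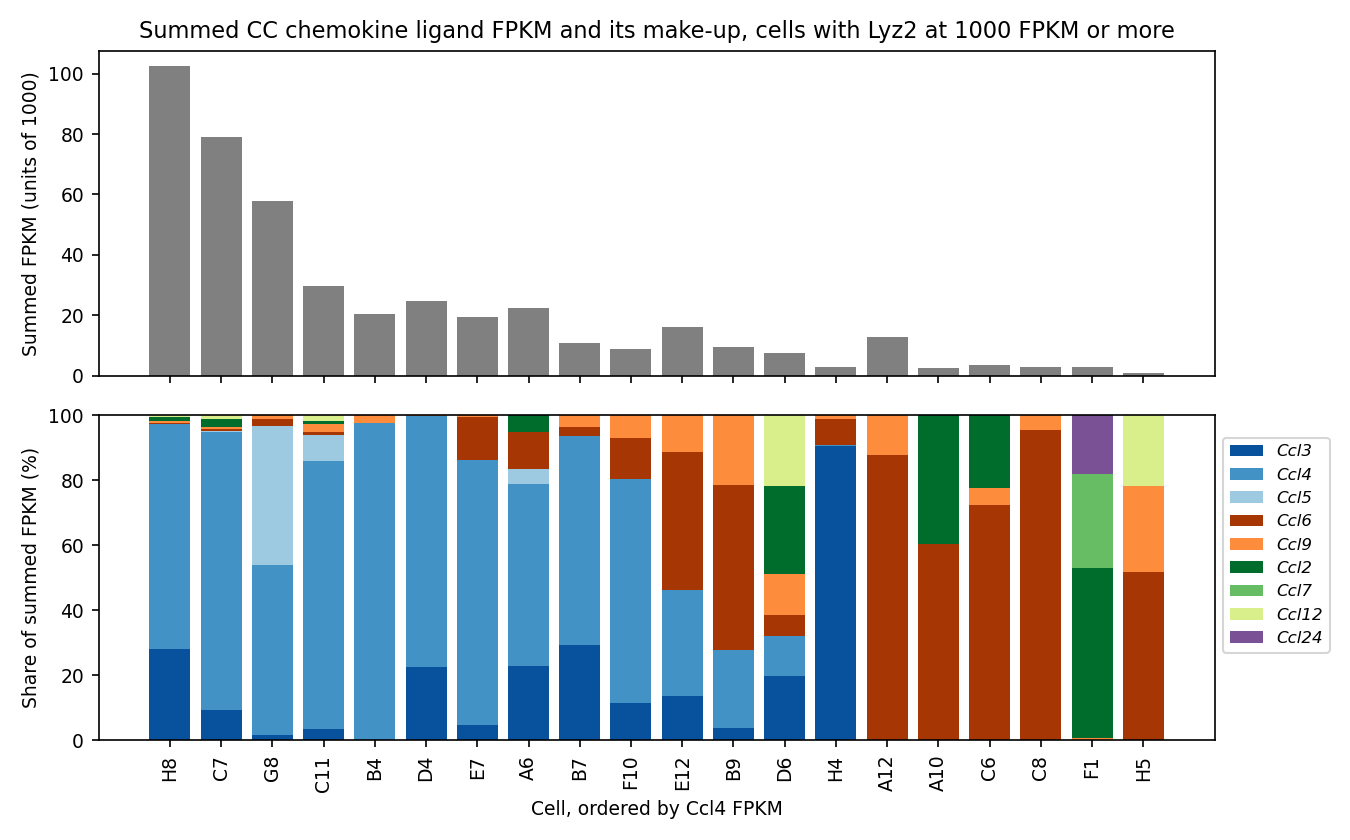
Summed FPKM of the 9 ligand genes (top, in units of 1000 FPKM) and the share of each gene in that sum (bottom, percent) in the 20 Lyz2-high cells, ordered by Ccl4 FPKM. The sum is highest in H8, C7 and G8, where Ccl4 leads, while Ccl6 leads in 7 cells.

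Ccl6 and Ccl9 were the most widely held members. Ccl6 (ENSMUSG00000018927; GRCm38 chromosome 11, 83587882 to 83593087, minus strand) and Ccl9 (ENSMUSG00000019122; 83572919 to 83578636, minus strand) are neighbours, with 9245 bases between them. At least 1 of them was found in 20 of 20 Lyz2-high cells, and in A12 and C8 no other member was held. The RefSeq promoters of both genes are shown because they are neighbours and the most widely held members. Each run is the strand of the gene in GRCm38.p6 from 250 bases before to 50 after its start, Ccl6 at chr11:83593038-83593337 and Ccl9 at chr11:83578587-83578886. Capitals mark stretches of 10 or more letters that occur in both, and stretches that overlap run together.
Ccl6: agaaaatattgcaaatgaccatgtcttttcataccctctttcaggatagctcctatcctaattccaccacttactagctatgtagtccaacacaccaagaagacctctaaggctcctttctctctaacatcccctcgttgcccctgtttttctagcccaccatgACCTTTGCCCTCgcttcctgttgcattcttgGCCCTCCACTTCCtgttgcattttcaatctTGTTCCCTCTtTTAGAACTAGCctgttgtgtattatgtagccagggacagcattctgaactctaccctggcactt
Ccl9: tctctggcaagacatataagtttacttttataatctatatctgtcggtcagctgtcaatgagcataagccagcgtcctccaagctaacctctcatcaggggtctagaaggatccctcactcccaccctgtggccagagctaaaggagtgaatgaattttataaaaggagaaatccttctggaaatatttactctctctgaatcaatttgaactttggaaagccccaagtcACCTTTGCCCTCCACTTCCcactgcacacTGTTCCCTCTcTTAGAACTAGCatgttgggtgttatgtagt
The 2 promoters shared 4 such stretches, the longest of 13 letters, GCCCTCCACTTCC. In Ccl9 the stretches of 12 and 13 letters, from bases 231 and 237 of its run, overlap. They appear there as 1 longer block of capitals, which does not occur whole in Ccl6. Each of the 4 stretches was found in 0.0122 to 0.143% of 32851 RefSeq mouse promoters of this length. The other 5 pairs among the 4 members with a promoter in the table (Ccl3, Ccl6, Ccl9 and Ccl12) shared none of 10 letters, with longest common stretches of 7 to 9 letters.

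Ccl6 was held by 18 of 20 Lyz2-high cells (90%, 68.3 to 98.8%), and by 2 of the other 11. Its level was 0 FPKM at the lowest (F1), 887 FPKM at the median and 11112 FPKM at the highest (A12). E12 with 6795 FPKM and B9 with 4740 FPKM followed. D4, the other cell below the limit, had 1 count (0.99 FPKM), and B4 had 3 counts (6.59 FPKM), so 17 of the 20 cells were above 100 FPKM. The Ccl6 locus overlaps E230016K23Rik on the other strand, and the library kit does not mark strand, so reads of the 2 genes cannot be told apart where they overlap. That gene had counts in 3 of the 20 cells.

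Ccl9 was held by 19 of 20 Lyz2-high cells (95%, 75.1 to 99.9%) and by 3 of the other 11. Which of Ccl6 and Ccl9 was held by more Lyz2-high cells turned on the limit: at 5 FPKM or more both were held by 90%, and at 50 FPKM or more Ccl6 by 85% and Ccl9 by 80%. Ccl9 was at 0 FPKM in A10, at 350 FPKM at the median and at 2014 FPKM in B9, the highest, with E12 at 1800 FPKM and A12 at 1566 FPKM next. The 3 cells highest in Ccl9 were thus the 3 highest in Ccl6. Of the 50-base stretches of Ccl9 transcripts, 1.97% also occur in transcripts of other genes, and its counts include fractions of reads; the other 8 members share none.

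Both genes were held together in 17 of the 20 cells, where 17.1 would be expected if the 2 were held independently of each other. Where both were held, Ccl6 was the higher in 12 of 17 cells, and the ratio of Ccl9 to Ccl6 was 0.46 at the median. That ratio ran from 0.00107 in A6 (2.77 FPKM of Ccl9 against 2578 FPKM of Ccl6) to 69.0 in B4. Across the 20 cells the correlation between the 2 levels was 0.28, so cells high in one were only loosely high in the other. All correlations here are descriptions across 20 cells that share 1 sort and differ in depth.

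Ccl4 and Ccl3 had the highest levels and stopped sharply between cells. Ccl4 (ENSMUSG00000018930; chromosome 11, 83662584 to 83664683, plus strand) and Ccl3 (ENSMUSG00000000982; 83647844 to 83649355, minus strand) are 13.2 kb apart and encode MIP-1 beta and MIP-1 alpha, which draw monocytes, T cells and NK cells. Of the pair, the promoter table holds Ccl3, which is printed because Ccl3 was above 1000 FPKM in 10 Lyz2-high cells and at 0 FPKM in 7. The run is at chr11:83649329-83649628, minus strand of GRCm38.p6.
Ccl3: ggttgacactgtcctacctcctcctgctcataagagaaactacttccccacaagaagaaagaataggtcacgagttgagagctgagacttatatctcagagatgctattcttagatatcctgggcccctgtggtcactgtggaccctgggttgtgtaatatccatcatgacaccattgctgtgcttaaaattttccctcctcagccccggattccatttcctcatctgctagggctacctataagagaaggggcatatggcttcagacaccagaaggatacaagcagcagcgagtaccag
None of its letters is in capitals, because none of the 5 motifs searched on both strands was found in this window. Matches had to be exact, so letters close to a motif, such as the tataag in this run, were not marked. The TATA box, TATAAA, is held by 13.6% of all 32851 RefSeq promoters of this length. The AP-1 motif, TGANTCA, is held by 7.81% of them. The ETS motif, AGGAAGT, is held by 9.35%, and the C/EBP motif, TTGCNNAA, by 10.8%. The NF-kappa B motif is held by 4.51%. Ccl9 held TATA box, AP-1 and NF-kappa B matches, Ccl6 an ETS match, and Ccl12 an ETS match and a TATA box match 31 bases before its start.

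Ccl4 was held by 14 of 20 Lyz2-high cells (70.0%, 45.7 to 88.1%). Its level was 0 FPKM in 6 cells (A10, A12, C6, C8, F1 and H5), 5681 FPKM at the median and 70840 FPKM in H8, the highest. C7 followed with 67486 FPKM and G8 with 30264 FPKM. Between 0 FPKM and the 937 FPKM of D6 there was a single cell, H4, at 7.80 FPKM from 13 counts, while 12 cells were above 1000 FPKM and 8 above 10000 FPKM. The gene was therefore either at 0 or abundant in 19 of the 20 cells. By mean level, 14077 FPKM, it ranked 8 among all genes in these cells, and it took 6.99% of all FPKM in H8. Among the 189 genes with a mean of 1000 FPKM or more, a comparison chosen after these values had been seen, the median gene was held by 19 of 20 cells and 12.7% of genes by 14 or fewer. The coefficient of variation of Ccl4 was 1.49 against a median of 0.73 over those 189 genes.

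Ccl3 was held by 13 of 20 Lyz2-high cells (65.0%, 40.8 to 84.6%), at 0 FPKM in 7 cells, 991 FPKM at the median and 28754 FPKM in H8, the highest. C7 had 7450 FPKM, D4 5574 FPKM and A6 5102 FPKM. The lowest level among cells that held it was 360 FPKM in B9, so Ccl3, too, was either at 0 or clearly present.

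Every Lyz2-high cell that held Ccl3 also held Ccl4. Both were found in 13 cells against 9.10 expected from independence, neither in 6, and Ccl4 alone in 1, B4, with 19832 FPKM of Ccl4 and no Ccl3 counts. The Spearman correlation between their levels was 0.68, the rank 6 of Ccl3 among the 3019 other genes compared with Ccl4. Where both were held, Ccl4 was the higher in 11 of 13 cells, and the ratio of Ccl3 to Ccl4 had a median of 0.29. H4 was at the other end: its 2448 FPKM of Ccl3 stood beside 7.80 FPKM of Ccl4. D6 also had more Ccl3 (1484 FPKM) than Ccl4 (937 FPKM).

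Outside the Lyz2-high cells, Ccl3 and Ccl4 were each found in 5 of 11 cells. In the 10 libraries poor in coding reads, the highest Ccl4 was 2435 FPKM (G1) and the highest Ccl3 2014 FPKM (F2). In F8, Ccl3 and Ccl4 rested on 2 counts and 1 count, and C4 had Ccl4 at 4.33 FPKM.

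Ccl5 (ENSMUSG00000035042; chromosome 11, 83525778 to 83530518, minus strand), encoding RANTES, which draws T cells, monocytes and eosinophils, was rarer and dominated by 1 cell. It was held by 5 of 20 Lyz2-high cells (25%, 8.66 to 49.1%) and by 0 of the other 11, which allows a share of up to 27.3% there. G8 had 24725 FPKM, against 2396 FPKM in C11, 1034 FPKM in A6, 88.5 FPKM in C7 and 40.4 FPKM in E7. G8 alone made up 87.4% of all Ccl5, and without it the mean over the Lyz2-high cells was 187 FPKM in place of 1414 FPKM. All 5 cells also held Ccl3, Ccl4, Ccl6 and Ccl9, and none of the 6 cells without Ccl4 held Ccl5. From independence, 3.25 of the 5 would be expected with Ccl3, 3.5 with Ccl4, 4.5 with Ccl6 and 4.75 with Ccl9. Beside these values, of the 8 NK cell genes listed none was found in any of the 31 cells, and of the 8 T cell genes only Cd4 was found in Lyz2-high cells, in F1, which had no Ccl5.

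**Figure D3:**
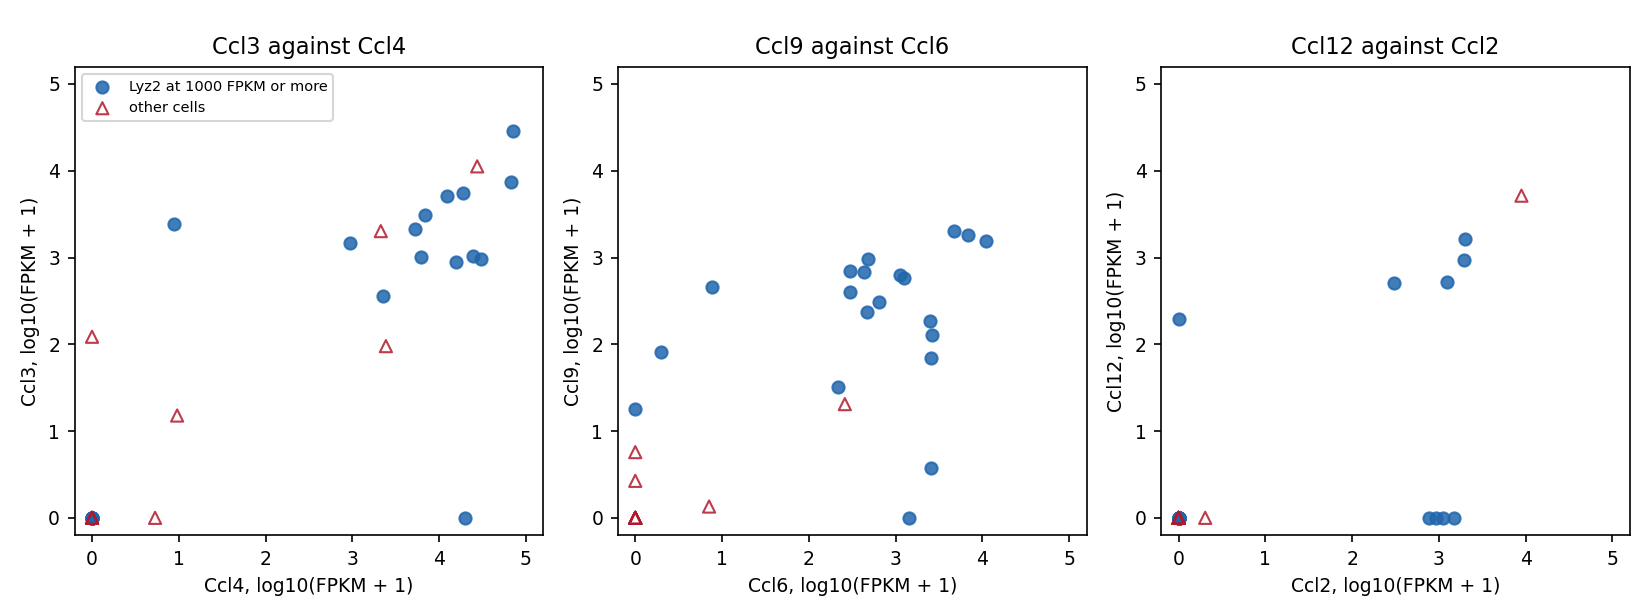
Levels of 3 pairs of ligand genes, log10(FPKM + 1) on both axes, in the 20 Lyz2-high cells (filled circles) and the other 11 (open triangles). Ccl3 and Ccl4 are both high or both at 0 in most Lyz2-high cells (both in 13, neither in 6), Ccl6 and Ccl9 are both above 0 in most, and Ccl2 is found with Ccl12 in 4 cells and without it in 4.

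The CCR2 ligands were found in fewer Lyz2-high cells. Ccl2, Ccl7 and Ccl12 lie within 67.8 kb on chromosome 11, 1422 kb from Ccl5, and at least 1 of them was held by 9 of 20 Lyz2-high cells. Ccl2 (ENSMUSG00000035385; 82035571 to 82037453, plus strand), encoding MCP-1, was held by 8 (40.0%, 19.1 to 63.9%). Its levels in these 8 were 2023 FPKM in D6, 1958 FPKM in C7, 1492 FPKM in F1, 1240 FPKM in H8, 1130 FPKM in A6, 938 FPKM in A10, 762 FPKM in C6 and 302 FPKM in C11. The other 12 cells were at 0 FPKM, so no cell lay between 0 FPKM and the 302 FPKM of C11. Absence from many cells was common at such levels. Of the 1338 genes with a mean of 100 FPKM or more, the median gene was held by 12 of 20 cells. The coefficient of variation was 1.45 for Ccl2, with a mean of 492 FPKM, and had a median of 1.42 over those genes. Ccl2 overlaps Gm17268 on the other strand, which had no counts in any of the 31 cells.

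Ccl12 (ENSMUSG00000035352; 82101845 to 82103400, plus strand), encoding MCP-5, was held by 5 of 20 Lyz2-high cells (25%, 8.66 to 49.1%). D6 had 1641 FPKM, C7 931 FPKM, H8 519 FPKM, C11 502 FPKM and H5 194 FPKM. Of these 5 cells, 4 also held Ccl2, where 2 would be expected from independence, and the correlation of their levels was 0.59. H5 held Ccl12 without Ccl2, and A6, A10, C6 and F1 held Ccl2 without Ccl12. Ccl2 was found with Ccl4 in 5 cells against 5.6 expected and with Ccl3 in 5 against 5.2, and A10, C6 and F1 held it with neither.

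Ccl7 (ENSMUSG00000035373; 82045712 to 82047525, plus strand), encoding MCP-3, and Ccl24 (ENSMUSG00000004814; chromosome 5, 135569937 to 135573049, minus strand), the 1 member not on chromosome 11, were each held by 1 of 20 Lyz2-high cells (5%, 0.127 to 24.9%), and it was the same cell. F1 had 818 FPKM of Ccl7 from 1593 counts and 516 FPKM of Ccl24 from 1196 counts, beside 1492 FPKM of Ccl2 and no Ccl3, Ccl4, Ccl5, Ccl6 or Ccl12. F1 was also the cell with the highest Ccl8, another monocyte-drawing ligand, at 3965 FPKM. It held 9 of the 11 interstitial macrophage genes listed, with the mannose receptor gene Mrc1 at 1887 FPKM and the complement gene C1qb at 4662 FPKM, and the apolipoprotein gene Apoe at 29000 FPKM. B4, C6, C7, H5 and H8 followed with 5 of the 11 genes each, and none of them held Ccl7 or Ccl24. H5 had more C1qb, at 13306 FPKM, and C6 had Apoe at 26632 FPKM and Mrc1 at 386 FPKM. Ccl7 was also found in F8, a library poor in coding reads, at 3243 FPKM from 487 counts.

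F11, the cell rich in coding reads without Lyz2, had the highest Ccl2 and Ccl12 of all 31 cells. It had 8951 FPKM of Ccl2 and 5160 FPKM of Ccl12, beside 27466 FPKM of Ccl4, 11233 FPKM of Ccl3, 259 FPKM of Ccl6 and 19.4 FPKM of Ccl9, with no Ccl5, Ccl7 or Ccl24. Together they made up 4.40% of its FPKM, and Ccl4 was the gene ranked 4 in that cell. F11 had Csf1r at 0.99 FPKM and Adgre1 at 0 FPKM, although both name the sort. Such low levels were not particular to F11: A12, a Lyz2-high cell, had Csf1r at 1.71 FPKM and Adgre1 at 0.12 FPKM. Among its 15 most abundant genes were the MHC class II genes H2-Ab1, H2-Aa and H2-Eb1 and the invariant chain gene Cd74. It also held Ccl22 (1879 FPKM) and Ccl17 (476 FPKM), ligands of CCR4, and Tnf at 1786 FPKM. Of the 11 interstitial macrophage genes listed F11 held 2, C1qb at 258 FPKM and Mrc1 at 50.3 FPKM. Of the 8 dendritic cell genes listed none was held by F11, so the cell is given no type here.

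**Figure D4:**
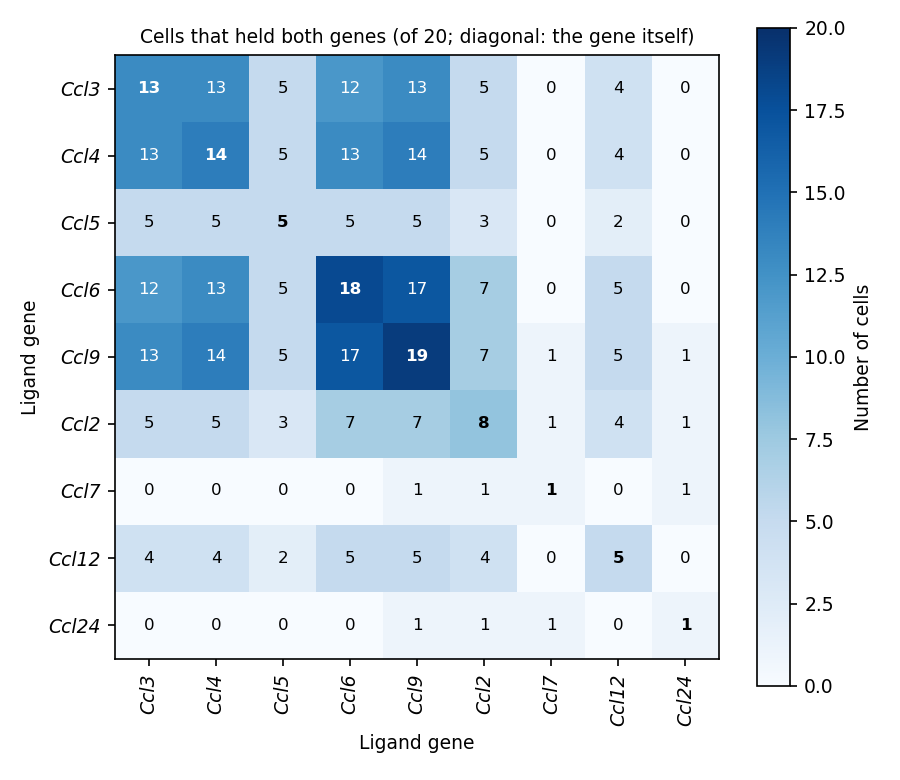
Number of the 20 Lyz2-high cells that held both genes of each pair at 1 FPKM or more; the diagonal gives the cells that held the gene itself. The block of Ccl3, Ccl4, Ccl6 and Ccl9 holds counts of 12 to 19, all 5 Ccl5 cells lie inside the Ccl3 and Ccl4 cells, and Ccl7 and Ccl24 share 1 cell.

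Of the 12 remaining CC ligand genes, 2 were found in Lyz2-high cells: Ccl8 in 2, and Ccl22 in 1 (94.2 FPKM, C7). Ccl8 was at 3965 FPKM in F1 and at 1.66 FPKM in the other cell. Over all genes, 10818 of 47069 were found in at least 1 of those cells, so absence was common among all genes as well. Ccl1, Ccl11, Ccl17, Ccl19, Ccl20, Ccl21a, Ccl25, Ccl26, Ccl27a and Ccl28 were found in 0 of 20, which allows up to 15% of cells for each. These include Ccl19 and Ccl21a, known from lymph node stroma, and Ccl11, which draws eosinophils.

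Receptors for some of the members were found in the same cells. Ccr2, the receptor of the CCL2 group, was held by 16 of 20 (80.0%, 56.3 to 94.3%; median 222 FPKM), and Ccrl2, an atypical receptor that binds chemerin, by 17 (median 1357 FPKM). Ccr1, a receptor of CCL3, CCL5, CCL6 and CCL9, was held by 7, and Ccr9 by 1. Ccr3, Ccr4, Ccr6, Ccr7, Ccr8, Ccr10, Ccr1l1, Ackr1, Ackr2 and Ackr4 were found in none. Over all genes, 10818 of 47069 were found in at least 1 Lyz2-high cell. Among the cells that held it, Ccr1 ran from 2.09 FPKM in A6 and 2.9 FPKM in A10 to 294 FPKM in C11. Of the 8 Ccl2 cells, 6 held Ccr2, where 6.4 would be expected from independence. Ccl6 was held by 7 of 7 cells with Ccr1, where 6.3 would be expected, and 11 of 13 without it.

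Tnf, the gene of tumour necrosis factor, had the highest correlation with Ccl4 of the 3019 genes compared. Ccl4 was held by 14 of 15 Lyz2-high cells with Tnf and by 0 of 5 without it (A10, A12, C8, F1 and H5). The exception was C6, with 632 FPKM of Tnf and no Ccl4. The Spearman correlation between the levels was 0.84. H8 was highest in both, with 2610 FPKM of Tnf, and H4, lowest in Ccl4 among the cells that held it, had the lowest Tnf of those cells at 58.0 FPKM. Ccl3 was held by 13 of the 15 cells with Tnf and 0 of the 5 without it, at a lower correlation of 0.43. The measure of likeness was the Spearman correlation over the 20 cells, for genes held by at least 6 of them. After Tnf, the genes most like Ccl4 were the interferon-induced chemokine gene Cxcl10 (0.75), Mtmr6 (0.75), Rpl23a-ps3 (0.70) and Ppp1r15a (0.69), a stress response gene.

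Other inflammatory genes were widespread in these cells and followed Ccl3 and Ccl4 to different degrees. Of 10 genes of NF-kappa B and its feedback, the transcription factor that drives many inflammatory genes, 10 were found in Lyz2-high cells, with the inhibitor gene Nfkbia and the mRNA decay gene Zfp36 in 20 of 20, Rel in 18, and Nfkbiz, Tnfaip3 and Atf3 in 16 each. The Spearman correlation with Nfkbia was 0.57 for Ccl4 and 0.51 for Ccl3, against -0.10 for Ccl2, -0.02 for Ccl6 and -0.02 for Ccl9. The number of these genes held had a correlation of 0.43 with Ccl4 and 0.48 with Ccl3. Of 10 other inflammatory mediators, 9 were found and Cxcl3 was not. Cxcl2, a neutrophil chemokine gene, was held by 17 of 20 cells, Il1b by 16, Tnf by 15 and Cxcl10 by 11. Beside both lists, 10818 of all 47069 genes were found in at least 1 Lyz2-high cell, and the median of those was held by 3. Ccl3 was held by 13 of 17 cells with Cxcl2 and 0 of 3 without it. Ccl4 was held by 12 of 16 cells with Il1b and 2 of 4 without it, at a correlation of 0.09.

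Ccl6 levels ran with the number of classical monocyte genes a cell held, and most cells with Ccl2 or Ccl12 had no Ly6c2. The classical monocyte surface gene Ly6c2 was held by 10 of the 20 Lyz2-high cells. Ccl6 was held by 10 of 10 cells with Ly6c2 and 8 of 10 without it, at a correlation of 0.54 with Ly6c2 and 0.55 with Plac8, another monocyte gene. The number of classical monocyte genes held, out of 10 listed, had a correlation of 0.57 with Ccl6, against -0.18 with Ccl4 and -0.39 with Ccl2. The number of nonclassical monocyte genes held had a correlation of 0.54 with Ccl4, 0.44 with Ccl3 and 0.11 with Ccl6. Genes of that list differed: the level of Cx3cr1 had a correlation of 0.12 with Ccl4 and -0.18 with Ccl3. Nr4a1, also listed, was at 0 FPKM in A10, A12, C8, F1 and H5, which lacked Ccl4. It was also at 0 FPKM in E12 and H8, which held Ccl4, and at 402 FPKM in C6, which did not. The number of interstitial macrophage genes held had a correlation of 0.46 with Ccl2 and -0.36 with Ccl6. Ccl2 was held by 2 of 10 cells with Ly6c2 (A6 and A10) and 6 of 10 without it. Ccl12 was held by 0 of 10 with Ly6c2 and 5 of 10 without it. C11, which had Ccl2 and Ccl12 but no Ly6c2, nevertheless held 8 of the 10 classical monocyte genes, and A6 and A10 held 9 each. The other cells with Ccl2 or Ccl12 (C6, C7, D6, F1, H5 and H8) held 1 to 4. For Ccl4 the counts were level, 7 of 10 with Ly6c2 and 7 of 10 without it.

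C1qb, a complement gene of tissue macrophages, was held by 6 Lyz2-high cells. Ccl2 was held by 4 of 6 cells with C1qb and 4 of 14 without it, and Ccl12 by 3 of 6 with it and 2 of 14 without it. Ccl3 was held by 2 of 6 cells with C1qb and 11 of 14 without it, and Ccl4 by 3 of 6 with it and 11 of 14 without it. The levels did not run with these counts: H8 and C7, the cells with the highest Ccl3 and Ccl4, both held C1qb, and the correlation with C1qb was -0.01 for Ccl4 and -0.14 for Ccl3. It was 0.19 for Ccl2 and -0.48 for Ccl6. With Mrc1, a gene held by 6 Lyz2-high cells, Ccl2 had a correlation of 0.53. None of these differences was tested.

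**Figure D5:**
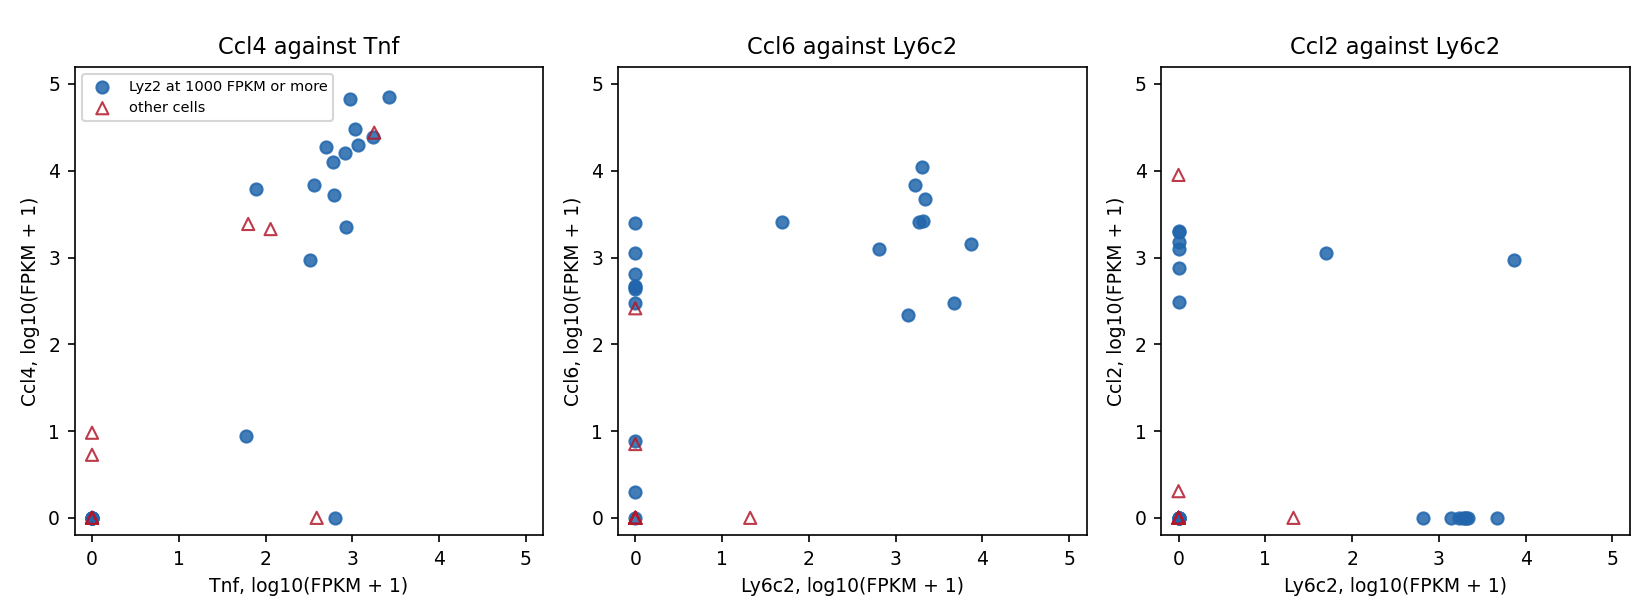
Levels of Ccl4 against Tnf, Ccl6 against Ly6c2 and Ccl2 against Ly6c2, log10(FPKM + 1) on both axes, in the 20 Lyz2-high cells (filled circles) and the other 11 (open triangles). Ccl4 and Tnf are both above 0 in 14 Lyz2-high cells and C6 has Tnf without Ccl4, every cell with Ly6c2 among the Lyz2-high cells has Ccl6, and only 2 of them have Ccl2.

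The genes most like Ccl3 were Uqcc1 (correlation 0.77), Far1 (0.76), Cxcl10 (0.73), the translation factor gene Eif4a1 (0.72) and Anp32a (0.72), and Ccl4 came at rank 7. Ccl6 was most like Tagln2 (0.79), Plec (0.74), Fam129b (0.73), Cox4i1 (0.73) and Chic2 (0.71). Ccl9 was most like Srgn (0.77), which encodes the granule proteoglycan serglycin, then Alyref (0.73), Ifi205 (0.71), Pepd (0.68) and Itgav (0.63). For Ccl2 they were Slc15a4 (0.74), the gene ENSMUSG00000090286 (0.69), Krr1 (0.69), Ppp1cc (0.69) and Polr2c (0.69). In sparse counts from 20 cells such ranks move easily: with Pearson's r of log2(FPKM + 1) in place of Spearman's, 2 of the 5 genes for Ccl4 kept their place among the first 5, 1 each for Ccl2 and Ccl3, and 0 for Ccl6 and for Ccl9. With genes held by at least 3 cells ranked, 0 were kept for Ccl2, 4 for Ccl9 and 5 each for Ccl3, Ccl4 and Ccl6. With F11 added to the cells, 3 were kept for Ccl2, 2 for Ccl3 and 4 each for Ccl4, Ccl6 and Ccl9.

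Levels did not follow depth closely within the Lyz2-high cells. The Spearman correlation with total counts was -0.30 for Ccl4, 0.01 for Ccl3, -0.23 for Ccl6, -0.18 for Ccl9 and 0.25 for Ccl2. H5, the deepest library with 4059833 counts, had no Ccl3 or Ccl4 count, and C8, the shallowest with 521492, had none either. The Spearman correlation with Lyz2 itself was -0.40 for Ccl4, -0.43 for Ccl3 and -0.35 for Ccl2, and 0.42 for Ccl6 and 0.47 for Ccl9.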

How the data were processed

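Polyadenylated RNA of each captured cell was copied and amplified with SMARTer chemistry and made into libraries with Nextera XT, per the labels' protocols; neither molecular identifiers nor strand were kept, so PCR copies count as reads. The submitters' processing notes list CASAVA 1.8, Trimmomatic and RSEM and the build GRCm38, but the aligner and the release of the annotation are not given there. Of the deposited values, the RSEM expected counts are estimates that can be fractional, and the deposited FPKM values are scaled by the authors to gene length and depth. The count table has 75 columns; 31 match the titles of samples and 44 were not used. Gene symbols were found for 46488 of 47069 identifiers. Coordinates are 1-based on GRCm38, and promoters are from RefSeq.

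From these values shares of cells, ranges, medians, pair counts and Spearman correlations were computed with Python 3.11.15, pandas 2.3.3 and scipy 1.17.1, and the ranking of like genes was tested on simulated data. No 2 libraries held identical counts. Where no cell held a gene, the limit given is 3 divided by the number of cells. Results of 1 listed gene are not reported here. The members and gene lists were chosen with earlier results of these data known. Named besides the members are, for each list, the 4 genes found in most cells and those found in none. The partner genes, the sort genes and the 5 genes most like each member held by at least 6 Lyz2-high cells are named too. Where they fall outside this rule, Zfp36, Cxcl10, Ccl8, Ccl17, Ccl22, Cd4, Cd74, H2-Ab1, H2-Eb1, Cx3cr1 and Nr4a1 were named after their values were seen. Alternatives were other minimums for presence, thinning of every cell to 120829 counts, other Lyz2 limits, libraries rich in coding reads, 2 other scalings and other measures of likeness.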

Additional observations from a re-analysis of the deposited data

How the results depend on the processing

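Of 233 alternative values over 39 results, 219 stayed within their counting interval, spread or 1.5 times the count and 14 moved further. For a median the limit was 1 SD over cells, which was larger than the median for every member (Ccl4: 21027 against 5681 FPKM). A fall of any median to 0 would thus have counted as staying. For results in Lyz2-high cells, the libraries rich in coding reads are the same 20 cells and F11. The count of 219 is therefore a weak measure of stability. With Lyz2 at 10000 FPKM or more, which leaves 17 cells, Ccl6 was held by 100% of cells, Ccl7 by 0% and Ccl24 by 0%; the cells dropped include F1, the only Lyz2-high cell with Ccl7 or Ccl24. Among all cells, restricting to the 21 libraries rich in coding reads gave 90.5% with Ccl6 in place of 64.5% and 95.2% with Ccl9 in place of 71.0%, and a minimum of 50 FPKM gave 51.6% with Ccl9. The other 8 were lists of like genes. The median number of members held was 4 under every alternative run. With Lyz2 at 100 FPKM or more, medians fell by over 1.5 times though by less than 1 SD over cells: Ccl4 was at 2243 FPKM in place of 5681, Ccl3 at 360 in place of 991, Ccl6 at 462 in place of 887 and Ccl9 at 183 in place of 350. No paired analysis was possible because there is 1 group. The data are limited to 20 Lyz2-high cells of unnamed animals at 1 time point, with no unoperated group.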
